A study of Schmidtea mediterranea with 36 samples.

Results

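The differentiated cells of the planarian Schmidtea mediterranea (asexual) were compared between 2 nutritional states, 7 days starved (7dS) and 1 day starved (1dS). These cells were taken by FACS in the Xins gate, which holds the cells that irradiation does not remove. All transcripts whose mean normalized TPM over the 12 Xins libraries reached 1 were tested, 16996 of the 26558 in the Xins table, and the comparison used 8 of the 36 libraries of the series, 4 at 7dS and 4 at 1dS. Of the other 9562 transcripts, 730 were listed at 0 in all 12 libraries. The mean just inside the threshold was 1.00003 and the one just outside was 0.999692. The tested transcripts held at least 99.3% of the normalized TPM of each Xins library. The series also holds libraries of X1 cells (dividing stem cells, in the S and G2/M phases) and X2 cells (resting stem cells and their progeny), and a later starvation time of 30 days (30dS), with 4 replicates in each of the 9 groups. All groups were untreated animals without transgene or RNAi, given liver as food and then starved, and the 1dS animals had thus been fed a day before. Each library holds RNA of a bulk sort of many cells, in which fewer cells of a type and less RNA per cell cannot be told apart. The methods do not say that replicates with the same number came from the same animals or the same sort, so the p-values cover only how much these particular samples vary, which may be technical in part.

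Planarians live through long starvation by shrinking, and they regrow after feeding. Feeding starts a burst of protein synthesis, and new proteins need chaperones to fold. TRiC, also called CCT, is a double-ring chaperonin of the cytosol that folds actin and tubulin. HSP70 and HSP90 with their cochaperones handle many other proteins of the cytosol, and proteins that enter the endoplasmic reticulum (ER) are folded there by BiP, GRP94, calreticulin, protein disulfide isomerases and prolyl isomerases. The unfolded protein response (UPR) is the signalling system that raises these ER chaperones when unfolded proteins accumulate. The roles of genes below are those known for the human proteins, since the symbols in the tables of the study are mostly names of the match in another species, mostly human. The symbols cover 150 transcripts of translation, tRNA charging, folding and the cytoskeleton. The study chose part of them, above all the folding genes, because they were lower in starved X1 cells of this series, so their direction is not independent evidence. The comparison with 1dS asks how these and all other transcripts of differentiated cells stand after a week without food.

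Transcripts chosen for X1 or X2 stood far lower in Xins than in those gates. cdk1, a kinase that drives cell division and marks dividing stem cells, reached at most 0.27 in any Xins library with every library set to a total of 1000000, against 38.4 or more in every X1 library. The 100 transcripts with the largest excess in X1 over Xins were chosen on the 30dS libraries alone. They summed to 137 to 220 in Xins at 7dS and 184 to 248 in Xins at 1dS, on the same scale. In X1 they summed to 16600 to 18356 at 7dS and 18232 to 19642 at 1dS. Of the 34 of them that were tested in Xins, 2 were lower at 7dS and none was higher. The 100 transcripts chosen likewise for X2 summed to 1861 to 2626 in Xins at 7dS and 2592 to 3214 in Xins at 1dS. In X2 they summed to 40754 to 53227 at 7dS and 49526 to 70447 at 1dS. Of 88 tested, 10 were lower at 7dS and none was higher. Of all transcripts tested, 3.06% were lower and 2.05% higher. The median log2 change was -0.56 for the tested X1 transcripts and -0.48 for those of X2, against 0.05 for all tested. For 100 transcripts chosen likewise for Xins it was 0.48, with 2 higher and 3 lower. The choice favours transcripts low (X1 and X2) or high (Xins) in the Xins libraries of 30dS, also a starved time. The direction of these medians is therefore not independent evidence. The part of X1 and X2 cells in the results was not tested. The sum of normalized TPM per library was 638389 to 1157050 at 7dS and 888634 to 1631960 at 1dS. In both groups replicates 1 and 3 had larger sums than replicates 2 and 4. Between 1918 and 3247 transcripts were listed at 0 per library at 7dS, and between 2436 and 6092 at 1dS. TPM keep no read depth, so the depth and the counting error of a value are not known here.

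In the Xins cells of 7dS animals, 349 transcripts (2.05%) rose and 520 (3.06%) fell relative to 1dS, with adjusted p under 0.1 over all 16996 tested. These counts come from a fit of all 12 Xins libraries, in which those of 30dS add to the estimate of the spread. With the 8 libraries of 7dS and 1dS fitted alone, 51 rose and 161 fell. At an unadjusted p under 0.05 the counts were 1425 higher and 1483 lower. The median log2 change was 0.84 among those that rose and -0.93 among those that fell, and 113 rose and 214 fell by at least 2-fold. The groups did not overlap in 333 of those that rose and in 496 of those that fell. Overlap was judged on the deposited scale, here and where not stated otherwise below. Over all transcripts, the 4 libraries of 7dS were all above those of 1dS in 877 (5.16%) and all below them in 1001 (5.89%). With the replicate number as a block in the fit, 2397 transcripts (14.1%) were higher and 2396 (14.1%) were lower at 7dS, and the 349 and 520 were all among them. The 59.8% of calls that were lower depended on the scale. With every library set to a total of 1000000, 728 transcripts were higher and 103 were lower (12.4% of calls), and the median over all transcripts moved to 0.38, against 0.05 on the deposited scale. Changes of some lists are therefore set against these medians below, and for others the calls with equal totals are given. The number of calls also rested on single libraries. Without any 1 library other than 1dS replicate 4, between 111 and 225 transcripts were higher, and without 7dS replicate 1 or 3 or 1dS replicate 1, 2 or 3, between 245 and 330 were lower. In replicates 1 and 3 alone 905 were higher and 1131 lower. In replicates 2 and 4 alone limma called 0 in either direction, with 909 higher and 890 lower at an unadjusted p under 0.05.

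The direction of change went with the level of the transcript. Those that fell had a median level of 36.8 normalized TPM over the 8 libraries and those that rose had one of 8.27, against 11.05 for all tested. Among the 3832 transcripts with a mean under 3, 57 rose and 26 fell, and the median log2 change was 0.14. Among the 502 with a mean of 300 or more, 1 rose and 47 fell (9.36%), and the median was -0.50. The medians of the level classes kept this order from the class of 3 to 10 upward with every library set to the same total, with 0.49 for 3 to 10 and -0.08 for 300 and over. Transcripts of the lists below are mostly of high level, so the share of a list that fell is to be read beside these class shares as well as beside 3.06%. Of those that rose, 24 of 349 were listed at 0 in 1 or more of the 1dS libraries.

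**Figure D1:**
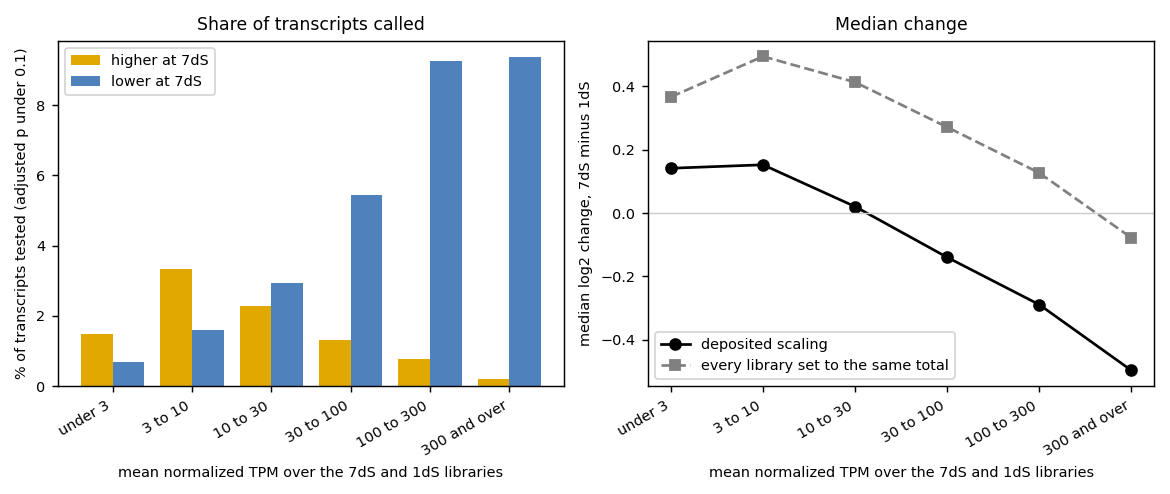
Share of transcripts called (left, percent of those tested) and median log2 change from 1dS to 7dS (right) for 6 classes of the mean normalized TPM over the 8 libraries. The share called lower is 0.678% under 3 and 9.36% at 300 and over, and the median goes down along the classes above 3 to 10 on the deposited scale (black circles) and with every library set to the same total (grey squares), where all classes but the highest are above 0.

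Of the 150 transcripts with a symbol, 135 were tested. In limma 45 of them (33.3%) fell and 0 rose, against 3.06% and 2.05% of all transcripts, and 70 were lower and 0 higher at an unadjusted p under 0.05. The log2 change was negative for 124 of the 135, compared to 45.7% of all transcripts, and the median was -0.68. In 44 of the 45 the libraries of 7dS were all below those of 1dS. With the replicate block 85 were lower and 0 were higher, against 14.1% of all transcripts in each direction. Block counts of the lists below are to be read beside that share. With every library set to the same total 7 were lower and 0 higher, and the median was -0.28. The block added to that scaling gave 53 lower and 12 higher, against 731 lower and 6580 higher of all 17327 transcripts tested there. With the 8 libraries of 7dS and 1dS fitted alone 19 were lower and 0 higher. Leaving out 1 library gave 27 to 47 lower, with under 31 without 7dS replicate 1 (28) or 3 (27) or without 1dS replicate 1 (29) or 3 (29).

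The 8 somatic TRiC subunits were all at a lower mean at 7dS, and 5 of them fell (cct2, cct3A, cct4B, cct7 and cct8A). Their median log2 change was -0.92, or -0.96 relative to the median of all transcripts. With every library set to the same total it was -0.50, or -0.88 relative to that median. On that scale none of these 5 passed (limma adjusted p of 0.12 for cct4B to 0.74 for cct3A). The only 1 of the 8 that passed there was cct6 (0.053), and with the block added to that scaling 5 were lower. cct4B had 87.9, 83.7, 75.2 and 78.8 normalized TPM in replicates 1 to 4 at 7dS, against 220, 163, 229 and 146 at 1dS. All 7dS libraries were below all 1dS libraries, and within 1dS replicates 1 and 3 were the higher ones. The log2 change of cct4B was -1.18 (SE 0.18, adjusted p = 0.0093). cct7 had 81.5, 83.5, 63.0 and 83.5 at 7dS and 148, 185, 157 and 154 at 1dS, again without overlap, with a log2 change of -1.04 (SE 0.16, adjusted p = 0.011). cct2 averaged 103 ± 6.35 at 7dS and 205 ± 51.0 at 1dS (SD, n = 4 libraries each) and changed by -0.96 on the log2 scale (adjusted p = 0.032 by limma). These 3 calls held without any 1 library, with adjusted p of at most 0.039, 0.043 and 0.089.

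cct8A and cct3A fell less clearly. cct8A had 123, 106, 117 and 110 at 7dS, against 297, 155, 271 and 153 at 1dS, and changed by -0.87 (SE 0.23, adjusted p = 0.074). The 1dS libraries of replicates 1 and 3 stood far above those of 2 and 4, which were still above all of 7dS. cct3A, the subunit the study worked on most, had 130, 133, 123 and 154 at 7dS and 203, 201, 230 and 193 at 1dS, without overlap, and changed by -0.61 (SE 0.15, adjusted p = 0.055). With libraries set to the same total cct3A was at 106 to 242 at 7dS and at 125 to 221 at 1dS. On that scale the groups overlapped in cct3A, cct7 and cct8A, and not in cct2, cct4B or cct6. The call of cct8A was lost without any of the 7dS libraries or 1dS replicate 1 or 3 (adjusted p 0.15 to 0.19), and that of cct3A without replicate 1, 2 or 3 of either group (0.11 to 0.14). The other 3 subunits did not pass the test. cct6 had 186, 109, 173 and 103 at 7dS and 399, 225, 522 and 201 at 1dS, with no overlap but the widest spread of the 8, and its log2 difference was -1.17 (adjusted p = 0.11, and 0.076 without 1dS replicate 4). cct1A had 45.3, 80.4, 40.1 and 78.3 at 7dS and 79.8, 141, 83.1 and 125 at 1dS, which overlap between replicates 2 at 7dS and 1 at 1dS, and its difference was -0.83 (adjusted p = 0.20). In this subunit replicates 2 and 4 were the higher ones in both groups. With the replicate block cct6 (adjusted p = 0.0033) and cct1A (0.0043) passed and 7 of the 8 were lower. cct5 differed by -0.40 (adjusted p = 0.34, and 0.12 with the block) and was the only subunit whose sign turned when libraries were set to the same total, to 0.020.

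**Figure D2:**
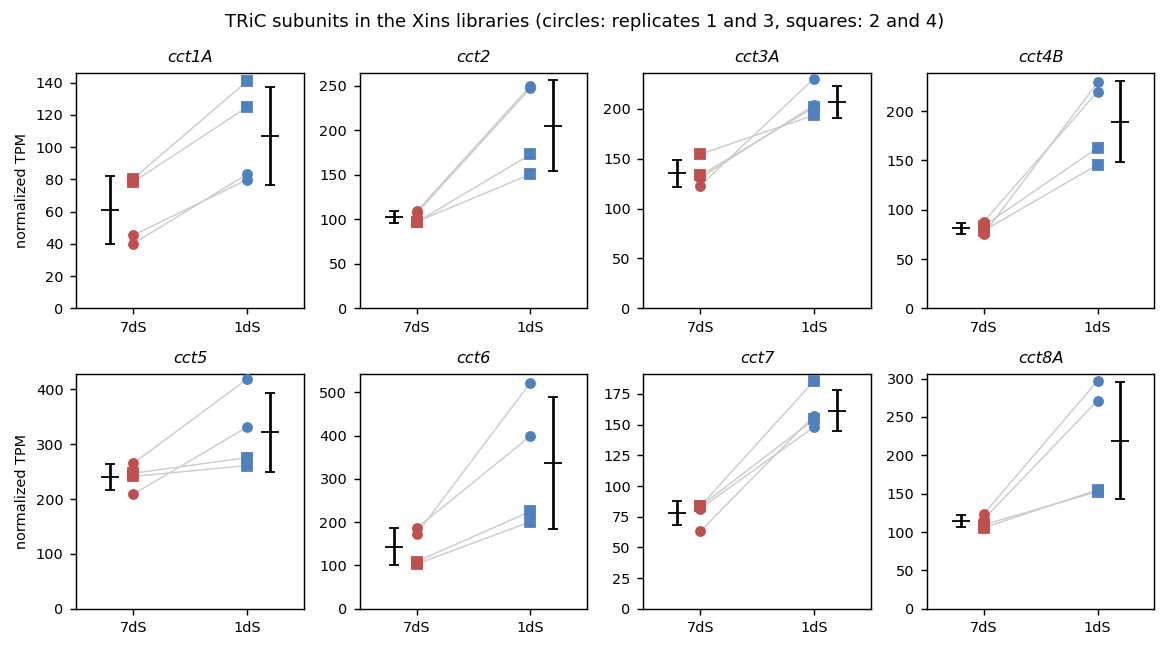
Normalized TPM of the 8 TRiC subunits in the 4 Xins libraries at 7dS (red) and at 1dS (blue); lines join libraries with the same replicate number, circles are replicates 1 and 3, squares 2 and 4, and bars show mean and SD. All lines go up from 7dS to 1dS, and the groups overlap in cct1A and cct5 only.

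Cytosolic HSP90 and its cochaperones had the lowest median of the lists, -1.51 on the log2 scale, and 3 of 5 fell. HSP90AA1, the stress-inducible cytosolic HSP90 of human cells, had 37.5, 71.8, 34.4 and 107 normalized TPM at 7dS, against 203, 228, 178 and 229 at 1dS. The groups did not overlap, and replicates 1 and 3 were the lower ones in both. It changed by -1.87 (SE 0.41, adjusted p = 0.038), a call that was lost without 7dS replicate 1 (0.12) or 3 (0.11). ST13, a cochaperone that binds HSP70, averaged 121 ± 30.9 at 7dS and 353 ± 32.4 at 1dS (SD, n = 4 libraries each) and changed by -1.57 (adjusted p = 0.013 by limma). FKBP4, a prolyl isomerase that works with HSP90 on hormone receptors, had 50.9, 74.96, 55.3 and 70.3 at 7dS and 212, 195, 173 and 141 at 1dS, without overlap, and changed by -1.51 (SE 0.20, adjusted p = 0.0066). The second HSP90AA1 transcript and CHORDC1, another HSP90 cochaperone, differed by -1.03 and -0.58 and did not pass (adjusted p = 0.18 and 0.64). With the replicate block all 5 were lower. With libraries set to the same total the list median was -1.47 relative to that of all transcripts, but on that scale 0 of the 5 passed without the block and 4 with it.

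In the ER, 5 of the 12 tested UPR factors and chaperones fell (bip-1, bip-2, Hyou1, MLEC and dnajb11) and the median was -0.98. bip-1, an HSP70 of the ER, had 160, 301, 161 and 311 normalized TPM at 7dS, against 520, 544, 653 and 516 at 1dS. The groups stood well apart, and at 7dS replicates 1 and 3 had about the same low level. It changed by -1.32 (SE 0.31, adjusted p = 0.046). Its paralog bip-2 had 21.9, 41.3, 28.0 and 30.1 at 7dS and 70.5, 55.2, 66.6 and 68.3 at 1dS, without overlap, and changed by -1.11 (SE 0.19, adjusted p = 0.018). Hyou1, which exchanges the nucleotide of BiP, averaged 34.0 ± 8.56 at 7dS and 73.3 ± 15.1 at 1dS (SD, n = 4 libraries each) and changed by -1.09 (adjusted p = 0.044 by limma). dnajb11, a cochaperone that brings unfolded chains to BiP, averaged 50.3 ± 11.3 at 7dS and 106 ± 14.8 at 1dS (SD, n = 4 libraries each) and changed by -1.07 (adjusted p = 0.026 by limma). MLEC, a lectin that binds newly made glycoproteins, had 73.9, 42.1, 63.7 and 44.1 at 7dS and 224, 90.6, 202 and 96.6 at 1dS. Its groups did not overlap, and here replicates 1 and 3 were the higher ones at both times, with a change of -1.36 (SE 0.33, adjusted p = 0.054). The calls of bip-2 and dnajb11 held without any 1 library. That of bip-1 was lost without replicate 1 or 3 of either group (0.10 to 0.14), that of Hyou1 without 7dS replicate 1 or 3 or 1dS replicate 3 (0.12), and that of MLEC without 7dS replicate 2, 3 or 4 or 1dS replicate 1 or 3 (0.10 to 0.14).

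Neither transcription factor of the UPR on the list passed the test. xbp1, the transcription factor that is spliced when the UPR is active, had 212, 264, 282 and 216 normalized TPM at 7dS and 335, 274, 381 and 232 at 1dS, and the groups overlapped. Its log2 difference was -0.31 (SE 0.23, adjusted p = 0.56), and 0.10 with libraries set to the same total and 0.036 after quantile normalization. The values are of the whole transcript and do not separate the spliced form. atf6, the other UPR transcription factor listed, had 34.2, 50.8, 31.4 and 46.8 at 7dS and 32.7, 41.9, 30.9 and 42.1 at 1dS, with a difference of 0.13 (adjusted p = 0.83). dnajb9, a cochaperone of BiP, differed by -0.21 (adjusted p = 0.59), and by 0.19 with libraries set to the same total. HSP90B1 (GRP94, the HSP90 of the ER), dnajc3 and SIL1 (a cochaperone and an exchange factor of BiP) differed by -1.03, -0.93 and -0.68 and passed with the replicate block only, with adjusted p of 0.024, 0.016 and 0.011 there and 0.23, 0.13 and 0.18 without it. calr, the lectin chaperone calreticulin, differed by -0.48 (adjusted p = 0.43, and 0.086 with the block). With the block 9 of the 12 were lower. With libraries set to the same total 1 was lower, and the list median was -0.94 relative to that of all transcripts, against -1.02 on the deposited scale. The 2 transcripts of bip-3 had means of 0.46 and 0.55 over the 12 libraries and were not tested.

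Prolyl isomerases, which turn the peptide bond before proline, had a median of -1.20, and 2 of 5 fell. PPIB (cyclophilin B of the ER) had 98.4, 121, 102 and 119 normalized TPM at 7dS, against 294, 331, 293 and 299 at 1dS. Within each group the libraries lay close together and the groups were far apart, and the change was -1.46 (SE 0.18, adjusted p = 0.0046). FKBP2, an isomerase of the ER as well, changed by -1.20 (adjusted p = 0.021), and PPIC differed by -1.50 with a wide spread (17.6, 75.4, 43.9 and 40.7 at 7dS and 70.05, 137, 77.8 and 220 at 1dS, adjusted p = 0.11, and 0.087 without 7dS replicate 2). With the block 4 of the 5 were lower, and 1 with libraries set to the same total. Of 7 tested protein disulfide isomerases, 1 fell. It was P4HB, the main isomerase of disulfide bonds in the ER, with 251, 407, 225 and 359 at 7dS and 521, 920, 642 and 878 at 1dS. No library of 7dS reached the range of 1dS, and the change was -1.26 (SE 0.28, adjusted p = 0.038, and 0.10 to 0.12 without 7dS replicate 1 or 3 or 1dS replicate 2). The median of the isomerases was -0.33, and 0.071 with libraries set to the same total, while all transcripts had 0.38 there. With the block 2 of the 7 were lower.

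The HSP70 transcripts of the cytosol gave few calls. HSPA4L, an HSP110 that exchanges the nucleotide of HSP70, had 56.3, 77.0, 39.7 and 75.04 normalized TPM at 7dS and 103, 124, 122 and 119 at 1dS. All 7dS libraries were below those of 1dS, and the change was -0.95 (SE 0.26, adjusted p = 0.082). This call was lost without any 1 library other than 7dS replicate 2 (0.10 to 0.19). The 4 transcripts of HSPA8, the constitutive HSP70, which may share reads, differed by -0.05 to -0.62 and did not pass, except that of comp320 with the replicate block (-0.62, adjusted p = 0.038, and 0.38 without it). With the block 2 of the 5 listed transcripts were lower, and the list median of -0.28 turned to 0.10 with libraries set to the same total. Among 6 other HSP40 cochaperones, which start the HSP70 cycle, DNAJB1 (-0.77, adjusted p = 0.027), DNAJC7 (-0.94, 0.046) and DNAJC27 (-0.96, 0.077) fell. DNAJC7 lost its call without 7dS replicate 2 or 4 or 1dS replicate 1 or 3 (0.11 to 0.12), and DNAJC27 without any 7dS library or 1dS replicate 1 or 3 (0.12 to 0.19). With libraries set to the same total 0 of these HSP40 cochaperones were lower, and 3 with the block added. In the mitochondria, 3 of 5 chaperones fell, but 0 were lower with libraries set to the same total and 2 with the block added. HSPD1, the HSP60 chaperonin of the matrix, had 109, 139, 98.5 and 151 at 7dS, against 244, 339, 295 and 346 at 1dS, without overlap, and changed by -1.30 (SE 0.21, adjusted p = 0.013). A second HSPD1 transcript of much lower level (2.67 ± 0.45 at 7dS and 6.15 ± 1.83 at 1dS, SD, n = 4 libraries each) changed by -0.93 (limma adjusted p = 0.047, and 0.11 to 0.13 without 7dS replicate 1 or 3 or 1dS replicate 2 or 3). TRAP1, the mitochondrial HSP90, changed by -0.54 (adjusted p = 0.048, and 0.11 to 0.13 without replicate 1 or 3 of either group), and HSPA9 and DNAJA3, the mitochondrial HSP70 and its cochaperone, differed by -0.57 and -0.09 (0.55 and 0.96), of which HSPA9 passed with the block (0.026).

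**Figure D3:**
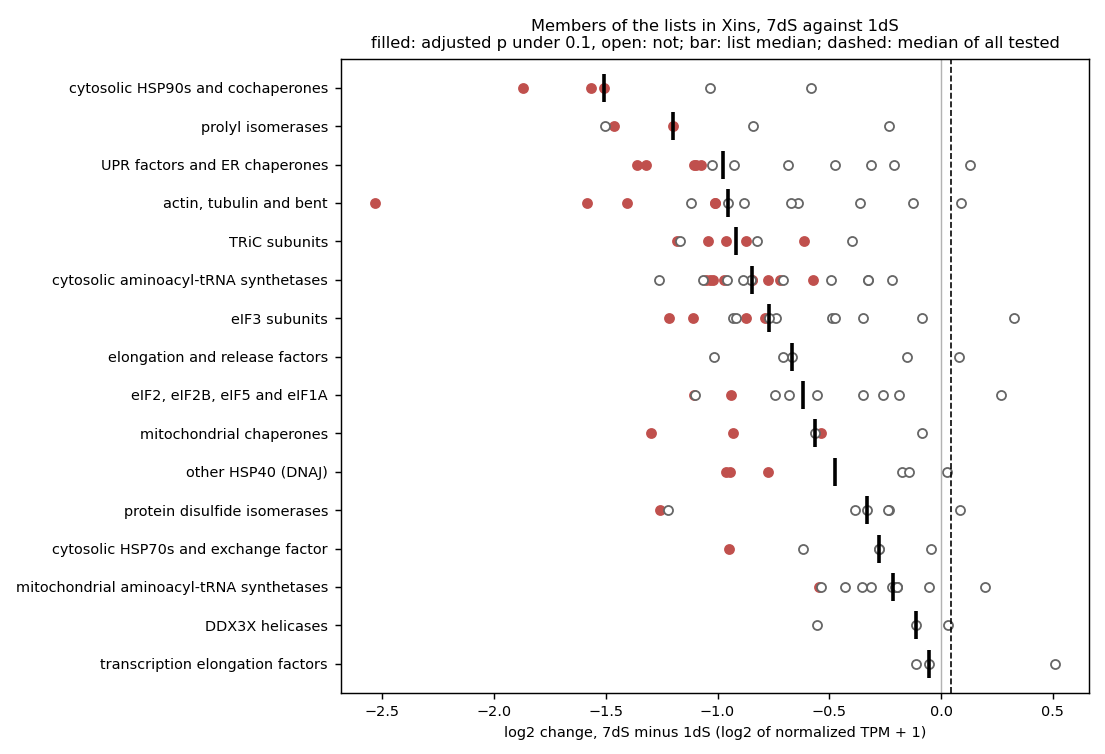
Log2 change from 1dS to 7dS in Xins for each tested member of the lists with symbols; filled points passed the test, open points did not, the black bar is the list median and the dashed line the median of all tested transcripts (0.05). The medians of the lists plotted, which are those of 3 or more related transcripts, run from -1.51 for cytosolic HSP90 and cochaperones to -0.06 for transcription elongation factors; with libraries set to the same total those of mitochondrial synthetases, disulfide isomerases, HSP70, DDX3X and transcription elongation factors are above 0, where that of all transcripts is 0.38.

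Of the 19 tested cytosolic aminoacyl-tRNA synthetases, which charge tRNAs with amino acids, 9 fell (47.4%) and the median was -0.85. RARS (arginine) changed by -0.84 (adjusted p = 0.016), ValRS (valine) by -0.97 (0.026), IARS (isoleucine) by -0.78 (0.035) and FARSB (the beta subunit for phenylalanine) by -1.02 (0.036, and 0.10 without 1dS replicate 1). The LARS transcript (leucine) had the largest difference of the list, with 54.0, 32.8, 53.7 and 31.7 normalized TPM at 7dS and 145, 61.6, 189 and 62.4 at 1dS. The groups did not overlap, but 1dS split into replicates 1 and 3 and replicates 2 and 4, and the difference of -1.26 did not pass (adjusted p = 0.11, 0.0039 with the replicate block, and 0.097 or 0.077 without 1dS replicate 2 or 4). MARS (methionine) differed by -1.06 (adjusted p = 0.21, and 0.0060 with the block). All 19 differences were negative, and 15 of the 19 were lower with the block and 1 with libraries set to the same total. Without 7dS replicate 1 or 3 or 1dS replicate 1 or 3, 4 to 6 were lower. The 12 mitochondrial synthetases had a median of -0.21, and of 0.14 with libraries set to the same total. With the block 4 were lower. In limma without it 1 of them fell, NARS2 (asparagine), with 5.88, 6.48, 4.41 and 6.41 at 7dS and 9.30, 8.79, 9.18 and 8.16 at 1dS. All 7dS values were below those of 1dS, and its change was -0.55 (SE 0.15, adjusted p = 0.074, lost without any 1 library other than 1dS replicate 4, at 0.10 to 0.17).

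Of 13 tested transcripts of eIF3, the scaffold on which the initiation complex forms on the small ribosomal subunit, 4 fell and the median was -0.77. EIF3G had 21.2, 24.1, 24.3 and 21.1 normalized TPM at 7dS, against 70.5, 45.7, 63.9 and 40.7 at 1dS. The 7dS libraries were nearly equal and all below those of 1dS, and the change was -1.22 (SE 0.19, adjusted p = 0.011). EIF3D had 39.1, 43.7, 35.8 and 40.2 at 7dS and 93.9, 78.2, 104 and 74.1 at 1dS, without overlap, with a change of -1.11 (SE 0.15, adjusted p = 0.0069). EIF3E and EIF3B fell by 0.87 and 0.79 on the log2 scale (adjusted p = 0.027 and 0.038, the second 0.10 without 1dS replicate 1 or 3), while EIF3A, the largest subunit, differed by -0.08 (0.95). The second EIF3G transcript differed by 0.32 (0.33). Of 10 tested transcripts of eIF2 (which brings the initiator tRNA), its exchange factor eIF2B, eIF5 and eIF1A, 2 fell (4 were lower without 1dS replicate 4), both EIF2S1, the alpha subunit of eIF2 whose phosphorylation slows translation under stress. The more changed of them had 29.8, 26.8, 28.0 and 29.2 at 7dS and 72.5, 59.8, 67.2 and 51.5 at 1dS. The groups were far apart for this transcript, with a change of -1.11 (SE 0.15, adjusted p = 0.0071), and the other changed by -0.94 (0.021). Another EIF2S1 transcript differed by -1.10 and passed with the block (0.0075) but not without it (0.18), or without 1dS replicate 4 (0.092). With the block 10 of 13 eIF3 and 6 of 10 eIF2 group transcripts were lower. With libraries set to the same total 0 of either list were lower. The block added to that scaling gave 6 and 4 lower, and 1 higher in each list. Of the 5 elongation and release factors 0 passed in limma, at the unadjusted p of 0.05 either, with differences of -1.02 (EEF1B2) to 0.08, and EEF1B2 was lower with the block (adjusted p = 0.082). EEF1B2 had 649, 361, 1101 and 288 at 7dS and 2807, 451, 2267 and 437 at 1dS, so that its replicates 1 and 3 and its replicates 2 and 4 lay far apart in both groups.

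Single transcripts outside these complexes were of both signs. EIF2C2, the Argonaute that carries small RNAs, had 66.6, 43.8, 58.0 and 64.8 normalized TPM at 7dS and 41.6, 43.1, 60.7 and 55.3 at 1dS. The groups overlapped widely, and the difference was 0.21 (adjusted p = 0.65). The DDX3X helicases, which unwind mRNA for translation, gave 0 calls in limma (0 at an unadjusted p under 0.05), 1 lower with the replicate block (comp2411, -0.55, adjusted p = 0.045, and 0.59 without it) and a median of -0.11, which turned to 0.30 with libraries set to the same total and to 0.045 after quantile normalization. The transcription elongation factor TCEA2 differed by -0.11 and did not pass (adjusted p = 0.90), and its difference turned to 0.30 with libraries set to the same total and to 0.13 after quantile normalization. The list of transcription elongation factors gave 0 calls in limma, also at an unadjusted p under 0.05. SH3GLB1, which bends membranes and takes part in autophagy, had 51.6, 146, 40.7 and 59.1 at 7dS and 147, 226, 117 and 218 at 1dS, so that 1 library of 7dS reached into the range of 1dS. It changed by -1.37 (SE 0.37, adjusted p = 0.073), and without 7dS replicate 2, the high one, the adjusted p was 0.022, while it was 0.14 to 0.19 without 7dS replicate 1, 3 or 4 or 1dS replicate 1, 2 or 4. PSMD5, which helps to assemble the proteasome, differed by -0.56 (adjusted p = 0.14, 0.016 with the block, and 0.094 without 1dS replicate 4).

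Actin and tubulin, the main clients of TRiC, included the largest fall among the transcripts with symbols. The ACTB transcript comp37 had 9050, 4122, 11966 and 4479 normalized TPM at 7dS, against 64922, 17219, 90191 and 22266 at 1dS. Replicates 1 and 3 were the high ones in both groups, and all of 7dS was below all of 1dS. It changed by -2.53 (SE 0.65, adjusted p = 0.063), and lost its call without 7dS replicate 1, 2 or 4 or 1dS replicate 1 or 3 (0.12 to 0.16). This transcript alone held 0.53% to 1.03% of the normalized TPM of a library at 7dS and 1.89% to 6.31% at 1dS. The part of its share in the values of other transcripts was not tested. The second ACTB transcript, comp246, differed by -1.12 (adjusted p = 0.50, and 0.013 with the replicate block).

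TUBA1A, an alpha-tubulin, had the smallest adjusted p of the named transcripts. Its transcript comp2143 had 146, 136, 120 and 141 normalized TPM at 7dS, against 398, 416, 398 and 418 at 1dS. The libraries of each group were nearly equal, and the change was -1.58 (SE 0.15, adjusted p = 0.0011, at most 0.0090 without any 1 library). TUBB4B comp640, a beta-tubulin, had 153, 117, 114 and 112 at 7dS and 392, 263, 407 and 272 at 1dS, without overlap, and changed by -1.41 (SE 0.23, adjusted p = 0.014). Other tubulin transcripts did not all follow. The TUBA1C transcripts comp508 and comp1623 changed by -1.01 each (adjusted p = 0.034 and 0.035, the second 0.10 without 1dS replicate 1), the TUBB4B transcripts comp152, comp471 and comp83 differed by -0.95, -0.64 and -0.36 and did not pass (0.17, 0.25 and 0.48, and 0.014 and 0.080 with the block for comp152 and comp471), and TUBB4B comp472 differed by 0.09 (0.87). TBCA, a cofactor of tubulin folding, differed by -0.13 (0.94), and bt (bent, a giant muscle protein) by -0.67 (0.52, and 0.063 with the block). In all, 5 of 13 fell with a median of -0.95, 10 were lower with the block, and 3 were lower with libraries set to the same total (ACTB comp37, TUBA1A comp2143 and TUBB4B comp640). Transcripts with the same symbol may share reads, so their values are not independent.

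**Figure D4:**
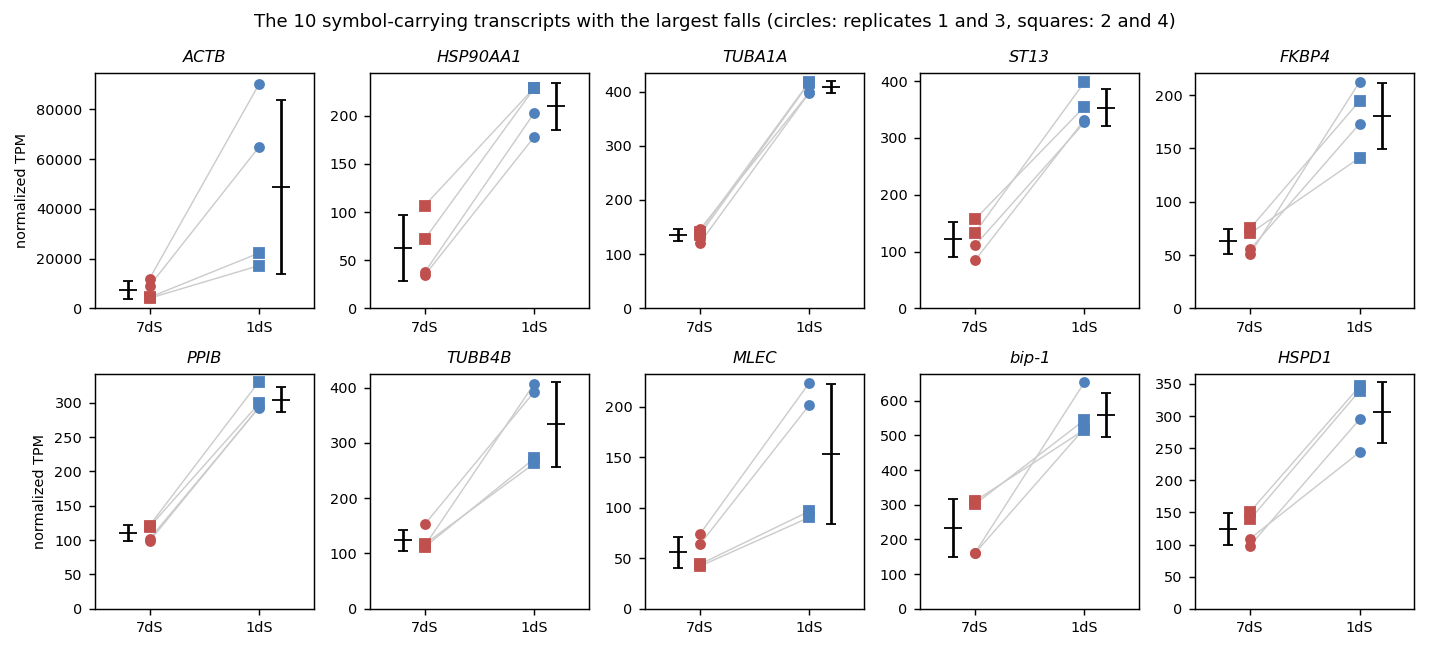
Normalized TPM in the Xins libraries at 7dS (red) and 1dS (blue) for the 10 transcripts with a symbol and the largest falls past the threshold, a mean over the 8 libraries of 10 or more and separate groups; lines join libraries with the same replicate number and bars show mean and SD. The spread at 1dS is narrow in TUBA1A (398 to 418) and wide in ACTB (17219 to 90191), where replicates 1 and 3 (circles) are the high ones.

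Gene groups that the study had drawn from its X1 libraries by GO term were looked up as well. Their members mostly carry no symbol, and the study chose each group for its direction in X1, so the direction in Xins is not independent evidence. Of 10 tested glycolysis transcripts, 6 fell, with a median of -0.75 and a summed level of 3584 to 4323 normalized TPM at 7dS, against 7020 to 7670 at 1dS. The sums did not overlap. With the replicate block 9 of the 10 were lower, without any 1 library 3 or 4 were, and with libraries set to the same total 0 were. Of 19 transcripts of the response to ER stress 10 fell (median -0.94, 17 with the block), and of 7 of protein refolding 5 fell (median -0.93, and 3 without 7dS replicate 1 or 3 or 1dS replicate 3), which were HSP90AA1, ST13, HSPD1, DNAJC7 and DNAJB1. With libraries set to the same total 1 transcript of the ER stress list and 0 of refolding were lower. The list of mitotic S phase had 9 of 15 lower (median -0.94, 13 with the block, 2 with libraries set to the same total, and 5 or 6 without any 1 library other than 1dS replicate 4). It holds all 17 members of the list on amino acid metabolism (9 of 14 lower), so that both are nearly 1 result, and cdk1 was close to 0 in these libraries. The transcription elongation list had 1 of 17 lower, and 7 with the block, with a median of -0.29 that turned to 0.12 with libraries set to the same total.

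Few lists lay above the median of all transcripts. Of 11 tested transcripts of nucleoside phosphate catabolism, which breaks down nucleotides, 0 were called in limma, with 2 higher at an unadjusted p under 0.05. The median was 0.34, and 4 were higher with the replicate block. The difference was positive in all 4 replicate numbers for 8 of the 11, compared to 3794 of the 16996 tested transcripts. The notum cell fate list (4 transcripts) had a median of 0.18 and gave 0 calls in limma, also at an unadjusted p under 0.05. None of the 349 transcripts that rose carries a symbol in the sources used here, so the genes that were higher in differentiated cells at 7dS cannot be described by name.

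The differences were also taken within each replicate number, since the 7dS and 1dS libraries of a number deviated together from their group means. For all tested transcripts the median difference of 7dS from 1dS was 0.02, -0.00, 0.07 and 0.04 in replicates 1 to 4. For TRiC it was -0.97, -0.82, -1.21 and -0.64, and all 8 subunits were lower at 7dS in all 4 numbers, compared to 3563 of the 16996 tested. For UPR factors and ER chaperones it was -0.86, -0.52, -1.44 and -0.67, with 11 of 12 lower in all 4, and for cytosolic HSP90 and cochaperones it was -1.55, -1.36, -1.63 and -0.997, with 5 of 5. For cytosolic synthetases it was -0.92, -0.52, -1.21 and -0.60, and 17 of 19 were lower in all 4. Lists were thus lower at 7dS in each number, but the size was smaller in replicates 2 and 4 for these groups, where no transcript passed the test alone.

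**Figure D5:**
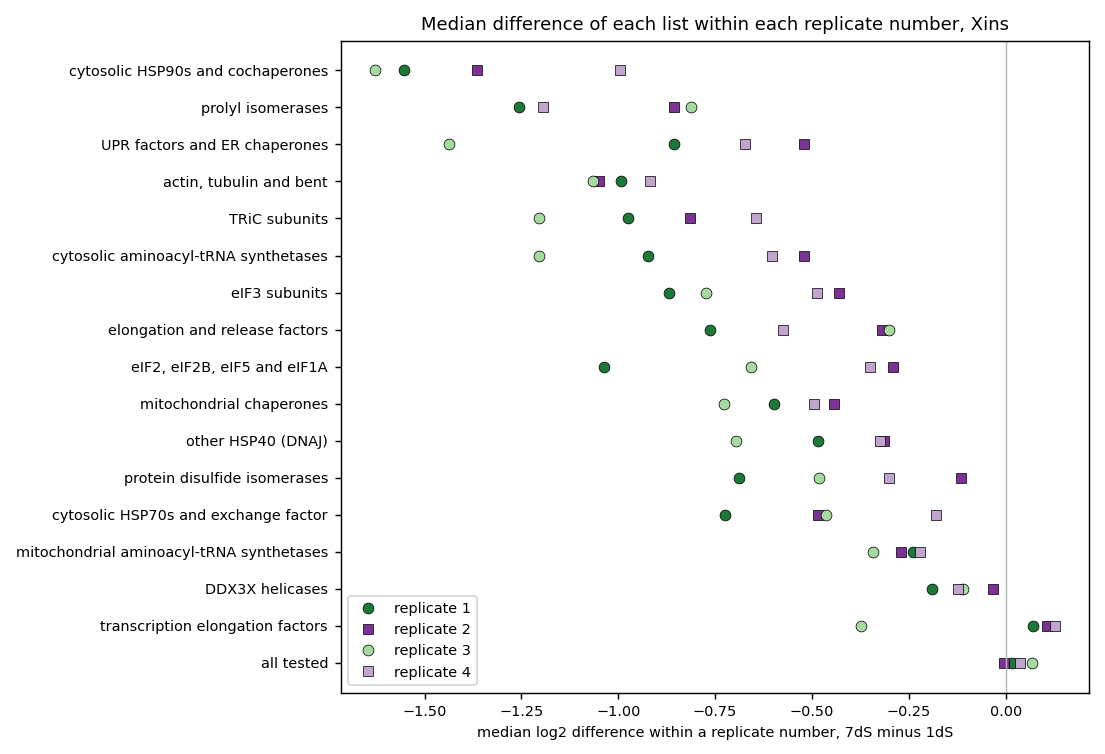
Median log2 difference of each list with symbols between the 7dS and the 1dS library of the same replicate number (circles: 1 and 3, squares: 2 and 4), with all tested transcripts in the lowest line. For TRiC the 4 medians lie between -1.21 and -0.64, while those of all tested transcripts lie between -0.00 and 0.07; for transcription elongation factors the sign differs between numbers.

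The largest changes of all belonged to transcripts without a symbol. Among those that rose, dresden_comp17854_c1_seq1 had 102, 132, 166 and 34.4 normalized TPM at 7dS, against 15.1, 4.48, 4.07 and 24.3 at 1dS. All 7dS libraries were above all of 1dS, but in replicate 4 the 2 libraries were close. It changed by 3.20 (SE 0.60, adjusted p = 0.022). dresden_comp17854_c0_seq1, of the same assembled component, had 54.6, 66.4, 78.8 and 22.1 at 7dS and 2.30, 3.62, 8.69 and 20.2 at 1dS, and changed by 2.78 (SE 0.54, adjusted p = 0.024). Again replicate 4 hardly differed, and both transcripts may share reads.

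Among those that fell, dresden_comp27326_c0_seq1 had 3.92, 0.814, 2.84 and 469 normalized TPM at 7dS, against 19080, 1080, 7265 and 480 at 1dS. The libraries of replicate 4 were alike at both times and the other 3 pairs lay far apart. Its log2 change was -8.01 (SE 2.03, adjusted p = 0.061), lost without 7dS replicate 1, 2 or 3 or 1dS replicate 1, 2 or 3 (0.10 to 0.17). dresden_comp104000_c0_seq1 was listed at 0 in replicates 1 to 3 and at 8.25 in replicate 4 at 7dS, against 202, 35.0, 102 and 11.5 at 1dS (adjusted p = 0.028). Here too the fall came from replicates 1 to 3, and no fold is given against the libraries at 0. Both transcripts also had a lower mean at 7dS in X1 and X2, where the 2 libraries of replicate 4 were again close to each other. dresden_comp27326_c0_seq1 had 338 in X1 and 393 in X2 in replicate 4 at 7dS, against 222 in X1 and 483 in X2 at 1dS. With every library set to the same total it responded by -7.63 in Xins, -7.16 in X1 and -7.92 in X2, and its response in Xins was not shown to differ from either (limma adjusted p = 1.00 each).

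The response of Xins was compared with that of X1 and X2 by a test of the difference between the responses, over 24 libraries each, with every library set to a total of 1000000 because the 3 tables had been normalized separately. Against X1, the response (7dS minus 1dS) was higher in Xins for 173 of 17204 transcripts (1.01%) and lower for 56 (0.326%). The median response was 0.36 in Xins and 0.14 in X1. Against X2 it was higher for 73 of 17270 (0.423%) and lower for 124 (0.718%), with a median of 0.37 in Xins and 0.34 in X2. With the replicate block these counts were 873 and 253 against X1 and 490 and 783 against X2. In 135 of the 229 calls against X1 and 152 of the 197 against X2 the 2 responses had opposite signs. A call on the difference itself favours opposite signs, and their share over all transcripts was not taken. These counts thus add nothing to the calls. For the 8 TRiC subunits limma called 0 differences from X1 or from X2 (1 higher in Xins than in X1 and 0 against X2 at an unadjusted p under 0.05). cct4B, for example, responded by -0.77 in Xins and by -1.40 in X1, with a difference of 0.64 (SE 0.38, adjusted p = 0.65). cct5 responded by 0.020 in Xins and by -1.06 in X1, with a difference of 1.08 (SE 0.42, adjusted p = 0.33). A different response was thus not shown for any subunit.

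Against X2 the responses of several named transcripts differed. The X2 libraries of 1dS were uneven, with 10378, 3201, 7479 and 2290 transcripts at 0 in replicates 1 to 4, against 2063 to 3924 at 7dS. The part of this in the differences was not tested. ACTB comp37 responded by -2.11 in Xins and by -0.32 in X2, and the difference of -1.80 passed the test (SE 0.45, adjusted p = 0.073). TUBA1A comp2143 responded by -1.17 in Xins and by 0.56 in X2 (difference -1.73, SE 0.45, adjusted p = 0.082). TUBA1C comp508, chosen after its values were seen, responded by -0.59 in Xins and by 0.96 in X2 (difference -1.56, SE 0.34, adjusted p = 0.034). These 3 of 13 transcripts of the actin and tubulin list were the ones called, with 6 of 13 lower at an unadjusted p under 0.05. DNAJC27, a small GTPase with a J domain, responded by -0.55 in Xins and by 1.23 in X2 (difference -1.78, SE 0.30, adjusted p = 0.0065). cdk1 responded by 0.10 in Xins, where its level was close to 0 throughout, and by -1.42 in X2 (difference 1.53, SE 0.28, adjusted p = 0.011). Against X1 none of these passed the test, and 1 of 139 with a symbol was called, PDIA2 (0.13 in Xins, -0.84 in X1, difference 0.97, adjusted p = 0.089), whose mean was 0.57 in Xins and which was named after its values were seen.

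Few transcripts were called between the Xins libraries of 30dS and 7dS, which with 4 libraries a group does not show that the groups were alike. Of all tested transcripts, 21 (0.124%) were higher and 3 (0.0177%) were lower at 30dS than at 7dS, with 275 higher and 165 lower at an unadjusted p under 0.05. Among the 135 with a symbol limma called 0, with 1 higher and 0 lower at an unadjusted p under 0.05. The comparison of 30dS with 1dS shares its 1dS libraries with that of 7dS, so its values are set beside the others only. The TRiC median was -0.69 for 30dS against 1dS and 0.28 for 30dS against 7dS. For UPR factors and ER chaperones these medians were -0.97 and 0.03, and for cytosolic HSP90 and cochaperones -1.28 and 0.28. cct3A averaged 173 ± 4.81 normalized TPM at 30dS and 135 ± 13.5 at 7dS, without overlap. Its log2 difference of 30dS from 7dS was 0.36 (SE 0.15, adjusted p = 0.98 by limma). At 30dS bip-1 averaged 216 ± 85.9 and TUBA1A comp2143 averaged 158 ± 6.45 (SD, n = 4 libraries each).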

How the data were processed

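RNA from FACS-sorted planarian cells was sequenced in single-end reads. The authors removed ribosomal reads, estimated TPM with kallisto 0.43.0 on the Dresden transcriptome and scaled each library by its Sleuth size factor, with a separate table for each population. The deposited signal is this normalized TPM. It is not a count and does not sum to a fixed total, so no count test was used. Members and gene lists were chosen with earlier results of these data known.

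log2(normalized TPM + 1) of the 12 Xins libraries was fitted with limma 3.58.1 (intensity trend, R 4.3.3, data.table version 1.17.8), without covariates, for transcripts whose mean reached 1. Changes of low transcripts come out too small on this scale. 7dS was tested against 1dS, two-sided, and p adjusted by Benjamini-Hochberg over all tested, with 0.1 as threshold. The fits were tested on simulated data. Plots used matplotlib 3.10.9.

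That replicate numbers pair the 7dS and 1dS libraries rests on their data alone. Deviations of those with the same number correlated at 0.45 to 0.71 (n = 4 pairs, across transcripts). Values with the number as a block are thus given where they change the call of a transcript described. Between 7dS and 1dS the best match was the own number in 3 of 4 cases. Libraries of replicates 1 and 3, like those of 2 and 4, deviated together there. Across numbers within these 2 sets they correlated at 0.35 to 0.66, so a pairing by number is hardly told apart from this split. The block was fitted with the 30dS libraries as well. Same-numbered libraries of 30dS and 1dS correlated at 0.10, -0.23, 0.72 and 0.76 in replicates 1 to 4. Those of 30dS and 7dS correlated at 0.33 to 0.91. The pairing was thus not seen between 30dS and 1dS in replicates 1 and 2.

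Named are the 10 largest rises and falls with a symbol (adjusted p under 0.1, mean of at least 10, no overlap), of which no rise qualified, all TRiC and UPR or ER chaperone transcripts, cdk1, the 2 largest changes of each list with symbols (1 of these is not reported here), and 2 transcripts without a symbol per direction. Further members of the lists are named as examples. Alternatives were other scalings, pseudocounts, filters and fits, and leaving out each library.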

Additional observations from a re-analysis of the deposited data

Results flagged for a closer look

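In 5 of 114 groups of 4 libraries that were looked at, 1 library stood far from the other 3, and chance gives about 1 group in 20 (5%). At 7dS, dresden_comp27326_c0_seq1 was at 469 in replicate 4 and at 0.814 to 3.92 in the others, and dresden_comp104000_c0_seq1 was at 8.25 in replicate 4 and at 0 in the others. TUBB4B comp640 was at 153 in replicate 1 at 7dS and at 112 to 117 in the others. cct7 was at 63.0 in replicate 3 at 7dS and at 81.5 to 83.5 in the others. PPIB was at 331 in replicate 2 at 1dS and at 293 to 299 in the others.

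Named transcripts whose response (7dS minus 1dS, log2 scale) differed between Xins and another population by the test of the difference were these. dresden_comp17854_c0_seq1 differed by 3.29 from X1 and by 4.42 from X2, and dresden_comp17854_c1_seq1 by 3.22 and by 3.15 (adjusted p of 0.022, 0.0042, 0.028 and 0.045 in limma). On the scale of this test the first was at 0.19 to 1.07 in X1 and 0.61 to 9.20 in X2 at these 2 times. The second was at 0 to 1.39 in X1 and 0 to 3.90 in X2. So near 0 a response in X1 could hardly be seen, and the difference from X1 mostly restates the rise in Xins. ACTB comp37 differed from X2 by -1.80, TUBA1A comp2143 by -1.73, DNAJC27 by -1.78 and cdk1 by 1.53. The cause of none of these was tested.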

How the results depend on the processing

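Counts of calls depended on the scaling, the libraries fitted, the block and single libraries. Against 349 higher and 520 lower, the counts were 728 and 103 with a total of 1000000, 259 and 451 with median-of-ratios scaling, 418 and 498 with quantile normalization, 236 and 418 without a filter, and 51 and 161 with the 8 libraries of 7dS and 1dS fitted alone. The replicate block gave 2397 and 2396, the block with a total of 1000000 gave 6580 and 731, and the block on the 8 libraries alone gave 2329 and 2517. Leaving out 1 library gave 111 to 331 higher and 245 to 503 lower. Chosen after seeing the data, replicates 1 and 3 alone gave 905 and 1131 and replicates 2 and 4 alone 0 and 0 (909 and 890 at an unadjusted p under 0.05). Same-numbered libraries of 7dS and 1dS deviated together, but so did replicates 1 and 3 and replicates 2 and 4. A pairing by number is thus not shown apart from that split. It was not seen between 30dS and 1dS in replicates 1 and 2. The block took away none of the 349 and 520 calls.

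For the response of Xins against X1 (173 higher, 56 lower), median-of-ratios scaling gave 71 higher and 68 lower, so the excess of higher responses depended on the scaling. A pseudocount of 0.1 gave 34 and 26, the replicate block 873 and 253, and leaving out 1 library 77 to 261 and 36 to 75. Against X2 (73 higher, 124 lower), median-of-ratios scaling gave 160 and 373, and the pseudocount of 0.1 gave 34 and 121. The replicate block gave 490 and 783, and leaving out 1 library 45 to 73 and 67 to 145.

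Of 57 named transcripts 32 were called. With a total of 1000000, 24 lost their call, and dnajb9 (0.19), TCEA2 (0.30), DDX3X comp3817 (0.30), xbp1 (0.10) and cct5 (0.020) changed sign, which the block leaves as they are. After quantile normalization TCEA2 (0.13), DDX3X comp3817 (0.045) and xbp1 (0.036) did, and TCEA2 ranged over -0.26 to 0.056 when 1 library was left out. List medians changed sign with a total of 1000000 for DDX3X (0.30), mitochondrial synthetases (0.14), transcription elongation factors (0.35), disulfide isomerases (0.071), HSP70 (0.10) and the GO list of transcription elongation (0.12). After quantile normalization those of DDX3X (0.045) and transcription elongation factors (0.13) did. That of transcription elongation factors was -0.039 to 0.076 without 1 library and 0.25 in replicates 2 and 4. The cause was not tested. TPM keep no depth, so a limit from depth cannot be given.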
